A study of Sus scrofa with 6 samples.

Results

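The genes described are PHGDH, PSPH, CTH, GGT1, GSTA1 and GSTA4, which encode enzymes of serine, cysteine and glutathione metabolism. They were taken as every probe set whose single platform symbol is one of these names, which gave 12 probe sets of 6 genes among 23999 probe sets and 6567 named genes. The genes were chosen from earlier results on these same arrays: PSPH, GSTA1 and GSTA4 for their difference between tissues and GGT1 for its ratio between early pregnant and non-pregnant ovary. What chose PHGDH and CTH is not stated in these sources. Their tissue and stage values are therefore a description, with no test. Of the 12 probe sets, 10 lay above a floor of 81.7 on at least 2 arrays, and 2, a further probe set each of GGT1 and GSTA4, lay under it on every array.

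Ovary and uterine tissue labelled myometrium, the smooth muscle wall of the uterus, came from non-pregnant (NP), early pregnant (EP) and late pregnant (LP) sows. The design counts 9 pigs, 3 at each stage, but only 1 array stood for each tissue and stage, 6 arrays in all. The labels state no breed, age or day of pregnancy, nor whether an array held RNA of 1 pig or of several combined. The values are MAS5 signals on a linear scale, which the authors had scaled to a common mean on each array. Signals under the floor were set to it, so a ratio against such an array is a lower bound, written "at least".

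Serine is made from an intermediate of glycolysis in consecutive steps: PHGDH commits the carbon, PSAT1 adds the amino group and PSPH removes the phosphate. Serine then supplies one-carbon units to the folate cycle and, through the transsulfuration pathway that ends with CTH, the carbon skeleton of cysteine. Cysteine limits the synthesis of glutathione, the main thiol of the cell, by GCLC, GCLM and GSS. GGT1, on the outer face of the cell membrane, starts the breakdown of extracellular glutathione and so returns its cysteine, while the alpha-class transferases GSTA1 and GSTA4 use glutathione to conjugate lipid peroxidation products and other electrophiles. Alpha-class transferases are known to be abundant in steroid-producing cells of the ovary.

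Markers of several cell types were detected in each tissue. Of 12 luteal and granulosa cell markers, all on the array, 11 were above the floor on each ovary array, with a summed signal of 114513 to 133198; the sum was 6467 to 24918 on the arrays labelled myometrium. There LHCGR and INSL3 lay under the floor on all 3 arrays, but the steroidogenic protein STAR read 13.2 at the non-pregnant, 5573 at the early pregnant and 6907 at the late pregnant stage. All 10 uterine epithelium markers were above the floor on each array labelled myometrium, where their sum was 57808.5 (NP), 117450 (EP) and 138759 (LP) against 3270.0 to 9160 in ovary. The higher pregnant sums came mostly from ACP5, SPP1 and SLPI. In the same order ACP5 read 559, 21477 and 31717, whereas EPCAM read 10256, 10845 and 9667 and KRT8 9978, 4496 and 8210.5. KRT18 and KRT19 were also highest on the non-pregnant array. The smooth muscle list, with 9 of 11 markers on the array, summed to 19168.5 to 32037 on the arrays labelled myometrium and 38798 to 61915 in ovary. Trophoblast markers, 6 of 10 on the array, summed to 597 on the non-pregnant array labelled myometrium and to 37673 and 43764 on its early and late pregnant arrays, where PLET1 held most of the sum. The 3' to 5' ratio of GAPDH, a measure of RNA quality, was 1.51 to 2.33 over the arrays and highest on the non-pregnant ovary array. That of actin was 2.56 to 3.49 and highest on the non-pregnant array labelled myometrium, where PHGDH and PSAT1 also had their highest signals.

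**Figure D1:**
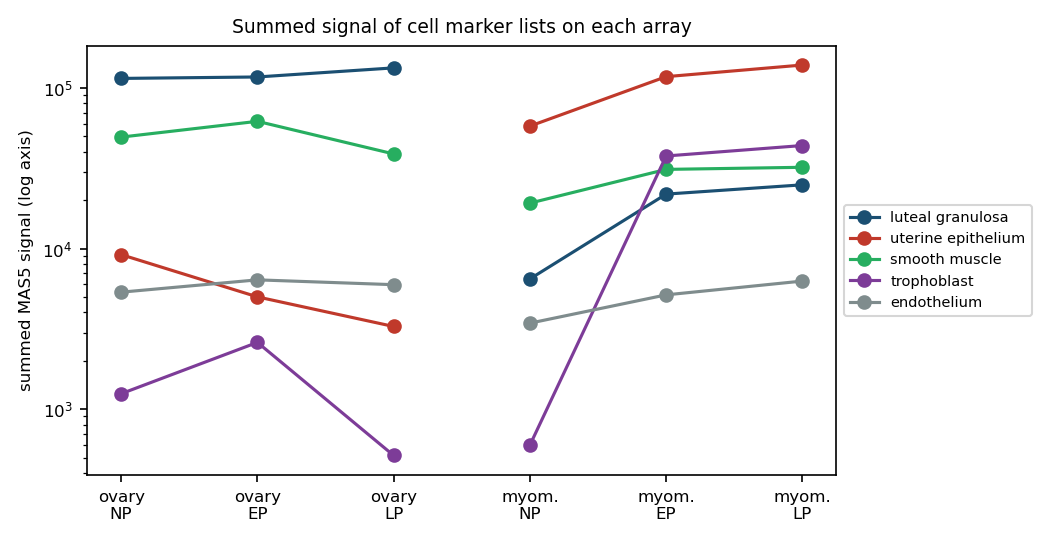
Summed MAS5 signal (log axis) of 5 marker lists on each of the 6 arrays (NP, non-pregnant; EP, early pregnant; LP, late pregnant; myom., tissue labelled myometrium); a point is 1 array and lines join stages of a tissue. On the arrays labelled myometrium, trophoblast and luteal sums are higher at both pregnant stages, the luteal sum mostly through STAR, CYP11A1, HSD3B1 and FDX1.

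PHGDH, the first enzyme of serine synthesis, was low in ovary at every stage and high on a single array. By stage (NP, EP, LP) the ovary signal was 325, 182 and 252. On the arrays labelled myometrium it was 13680.1 at the non-pregnant, 436 at the early pregnant and 1079.7 at the late pregnant stage. All 3 of these exceeded every ovary array, and the non-pregnant array stood far above the rest. The early pregnant array labelled myometrium was 31.3-fold and the late pregnant one 12.7-fold below the non-pregnant array, and the late was 2.47-fold above the early. Between tissues, the log2 ratio of ovary over myometrium was -5.39 at the non-pregnant, -1.26 at the early pregnant and -2.10 at the late pregnant stage, with a mean of -2.92 ± 2.18 (SD over 3 stages). The SD over stages holds stage differences as well as noise, here and for the genes that follow. Since these are bulk tissues, fewer cells that express the gene and less RNA per cell cannot be told apart. Among the arrays labelled myometrium, the one with the highest PHGDH had the lowest epithelial, trophoblast and luteal marker sums. Within the epithelial list, however, KRT8, KRT18 and KRT19 were highest on that array. The part of cell composition in the result was not tested.

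PSPH, which completes serine synthesis, was also lower in ovary, but its order over the uterine stages was different. In ovary it read 673.5, 464.5 and 617 at the non-pregnant, early pregnant and late pregnant stages. The arrays labelled myometrium read 7561, 14289 and 4257 in the same order, so that the tissues did not overlap and the highest value was the early pregnant one. The log2 ratio of ovary over myometrium was -3.49, -4.94 and -2.79 by stage, a mean of -3.74 ± 1.10 (SD over 3 stages), or 13.4-fold. Within that tissue the early pregnant array was 1.89-fold above and the late pregnant array 1.78-fold below the non-pregnant one, and late was 3.36-fold below early pregnancy. In ovary no pair of stages was further apart than 1.45-fold.

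PSAT1, the enzyme between them, was, like PHGDH, highest on the non-pregnant array labelled myometrium. Its signal was 14958 on the non-pregnant array labelled myometrium and 2464.4 and 2464.5 on the early and late pregnant arrays, each 6.07-fold lower. The ovary arrays lay between these, at 7871, 8405 and 7272, so the tissues overlapped and PSAT1 had no tissue call (limma adjusted p = 0.441). On the early pregnant array labelled myometrium, the first and middle enzymes thus had their lowest uterine signal, for PSAT1 level with late pregnancy, and the last its highest.

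**Figure D2:**
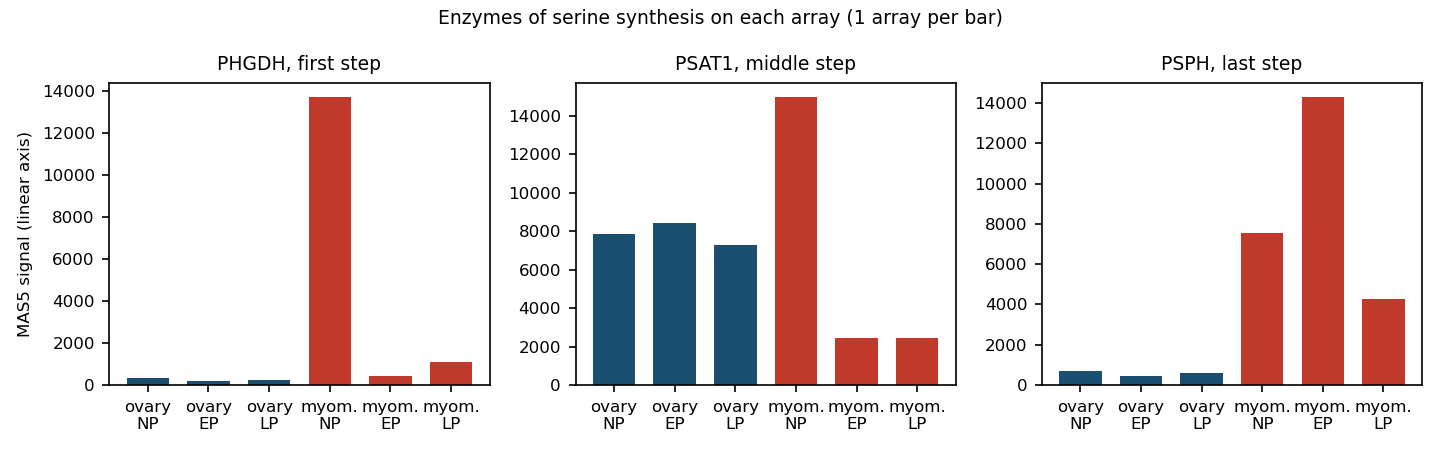
MAS5 signal (linear axis from 0, scaled separately for each gene) of the 3 serine synthesis enzymes on the 6 arrays, 1 array per bar; blue, ovary; red, tissue labelled myometrium (myom.); NP, non-pregnant; EP, early pregnant; LP, late pregnant. PHGDH and PSAT1 are highest on the non-pregnant array labelled myometrium, at 13680.1 and 14958, whereas PSPH is highest on the early pregnant one, at 14289.

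CTH, cystathionine gamma-lyase, releases cysteine in the last step of transsulfuration. It was level across the ovary, at 483, 494 and 551 by stage. The arrays labelled myometrium read 488 at the non-pregnant, 2239 at the early pregnant and 207 at the late pregnant stage. These values fell on both sides of the ovary's, and CTH was the only one of the 6 genes whose tissues overlapped on its brightest probe set. The early pregnant array was 4.59-fold above the non-pregnant and the late pregnant array 2.35-fold below it, which put the late array 10.8-fold below the early one. The tissue ratio turned with stage, from -0.013 (NP) to -2.18 (EP) and 1.41 (LP) on the log2 scale, with a mean of -0.26 ± 1.81 (SD over 3 stages).

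GGT1, gamma-glutamyltransferase, was higher in ovary, and its ovary signal was lowest in early pregnancy. The brightest of its 4 probe sets read 2085, 516 and 3397 in ovary by stage. On the arrays labelled myometrium it read 111.5, 274 and 151, all below the lowest ovary array. The early pregnant ovary was 4.04-fold below the non-pregnant ovary and 6.59-fold below the late pregnant ovary, while the early pregnant array labelled myometrium was 2.45-fold above its non-pregnant array. The tissue difference was 4.22 (NP), 0.91 (EP) and 4.49 (LP) on the log2 scale, and 3.21 ± 1.99 on average (SD over 3 stages).

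The other GGT1 probe sets also had their lowest ovary signal in early pregnancy, apart from one without signal. One read 552, 222 and 1102 in ovary by stage, and another 255, 85.8 and 236, which made early pregnancy 2.49-fold and 2.97-fold below the non-pregnant ovary. They differed on late pregnancy: against the non-pregnant ovary the brightest probe set was 1.63-fold higher, the next also higher (1102 against 552) and the third 1.08-fold lower. On the arrays labelled myometrium the second read 74.9, 202 and 143, and the third lay under the floor on all 3. The fourth lay between 2.7 and 67.2, under the floor everywhere. INHA, an inhibin subunit made by granulosa cells and chosen here after its values were seen, read 6006, 2465 and 5803 in ovary by stage. Other luteal and granulosa markers went both ways. NR5A2 read 5741, 3572 and 6325.5, but RLN2 read 11029, 31900 and 29660 and LHCGR 2480, 3762 and 3309.5. Any link between these genes and GGT1 was not tested.

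GSTA1, an alpha-class glutathione transferase, was higher in ovary: on each of its 3 probe sets every ovary array exceeded every array labelled myometrium. Its brightest probe set read 49476, 29115 and 31312.5 in ovary by stage. The arrays labelled myometrium read 1351, 11109.5 and 1720.5, so the early pregnant one was 8.22-fold above the non-pregnant one and the late pregnant one 6.46-fold below the early. The tissue ratio was 5.19 (NP), 1.39 (EP) and 4.19 (LP) on the log2 scale, with a mean of 3.59 ± 1.97 (SD over 3 stages). A second probe set read 36653, 25045 and 23890.5 in ovary and 3419, 17259.8 and 3393 on the arrays labelled myometrium, again highest there in early pregnancy, with a smaller tissue difference of 2.26 ± 1.52 (SD over 3 stages).

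The third GSTA1 probe set went its own way in uterine tissue. It read 22.8 on the non-pregnant, 418 on the early pregnant and 1742 on the late pregnant array labelled myometrium, against 16901, 22200.0 and 21120.0 in ovary. Early pregnancy was thus at least 5.11-fold and late pregnancy at least 21.3-fold above the non-pregnant array, and late was 4.17-fold above early, the reverse of the other probe sets. Its tissue difference was 5.67 ± 2.05 on the log2 scale (SD over 3 stages, with 1 uterine array at the floor). The platform annotation gives the brightest probe set 2 transcript accessions, of which 1 was found in the RefSeq gene table, and its name ends in _s_at, Affymetrix's mark for probes shared by several transcripts. Signals of near-identical alpha-class transferases cannot be told apart on it. Luteal and granulosa markers summed to 21813 on the early and 24918 on the late pregnant array labelled myometrium, with 8 and 5 of them above the floor. Between these arrays STAR and CYP11A1 were higher in late pregnancy, CYP11A1 at 4452 against 1502, while HSD3B1 was lower, at 1822 against 3101, and SCARB1 at 387 against 884. Most of both sums came from the markers STAR, CYP11A1, HSD3B1 and FDX1, while LHCGR, INSL3 and NR5A1 lay under the floor on both arrays. Whether luteal or granulosa cells were present in that tissue, and their part in the GSTA1 signal, was not tested.

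GSTA4, the alpha-class transferase known for conjugating 4-hydroxynonenal and related lipid aldehydes, was higher in ovary, and its uterine signal was lower at each later stage. It read 10044, 8083 and 7865 in ovary and 1880.2, 754 and 382 on the arrays labelled myometrium in order of stage. Every array labelled myometrium lay below every ovary array, and the uterine signal was 2.49-fold lower at the early pregnant and 4.92-fold lower at the late pregnant than at the non-pregnant stage. The tissue ratio was 2.42, 3.42 and 4.36 on the log2 scale, a mean of 3.40 ± 0.97 (SD over 3 stages) or 10.6-fold. A second probe set read between 1.5 and 39.7 and lay under the floor on all arrays. In the Sscrofa11.1 RefSeq gene table GSTA1 and GSTA4 lie close together with 3 annotated genes between them, 2 of them protein-coding with a locus number alone, and 0 probe sets were assigned to these. From the non-pregnant to the early pregnant array labelled myometrium, the brightest probe set of GSTA1 was higher and that of GSTA4 lower.

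**Figure D3:**
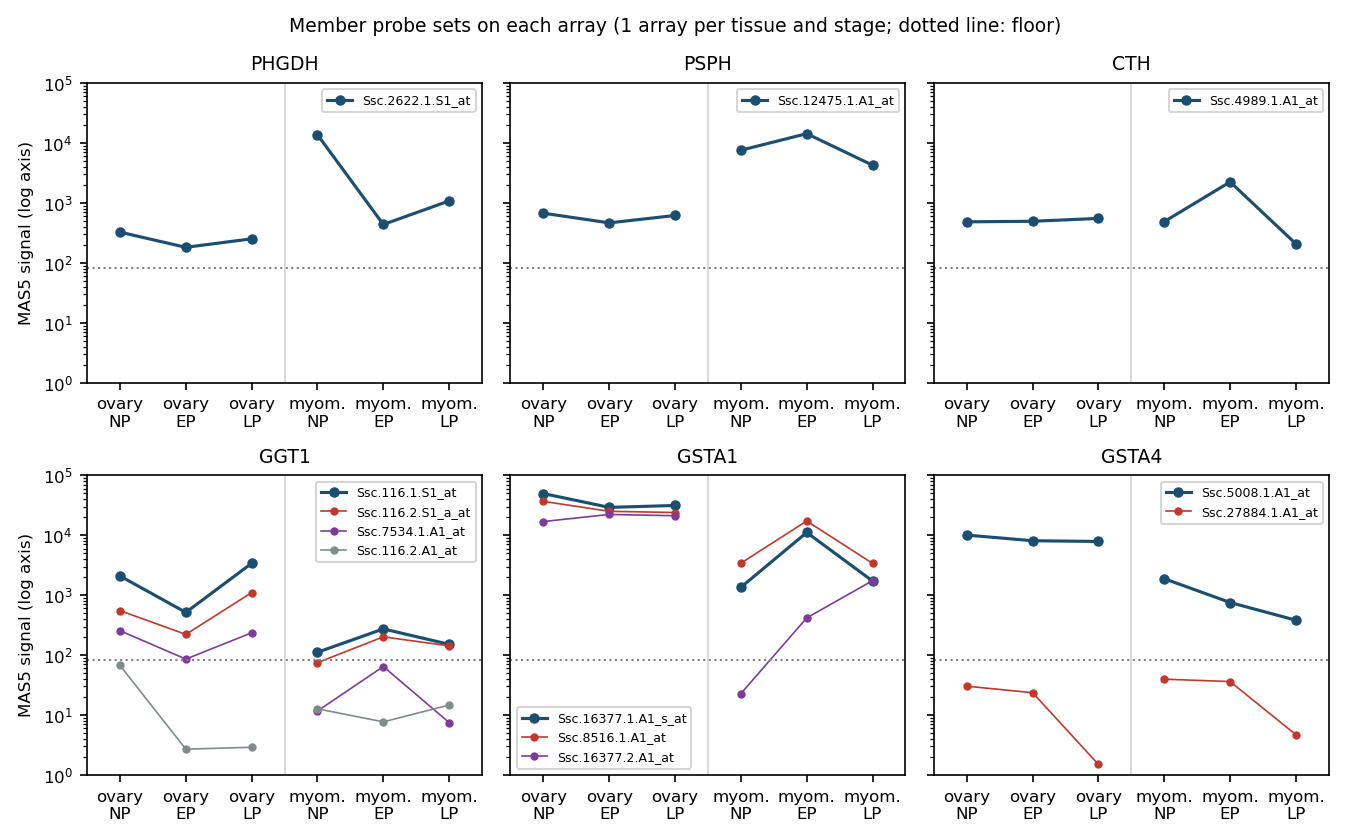
MAS5 signal (log axis) of the 12 probe sets on the 6 arrays; a point is 1 array, lines join stages of a tissue, the dotted line is the floor of 81.7, and colours separate probe sets of a gene (NP, non-pregnant; EP, early pregnant; LP, late pregnant; myom., tissue labelled myometrium). PHGDH and PSPH lie higher on the uterine arrays, GGT1, GSTA1 and GSTA4 higher on the ovary arrays, and CTH overlaps.

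On the brightest probe sets, GGT1, GSTA1 and GSTA4 had all 3 ovary arrays above all 3 arrays labelled myometrium, as did 14.7% of the 5673 genes above the floor on at least 2 arrays. PHGDH and PSPH had the opposite order, which 12.9% of those genes shared. Since the genes were chosen with these differences known, nothing is read from the counts.

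Within the ovary, 1 of the 6 genes, GGT1, was 2-fold or more lower in early than in non-pregnant tissue and 0 were higher, where 2.47% of 5466 measured genes were lower and 2.01% higher. In late pregnancy 0 of 6 were 2-fold away from the non-pregnant ovary in either direction (2.80% of all measured genes were higher and 3.35% lower). GGT1 alone was 2-fold or more higher in late than in early pregnancy and 0 were lower (1.31% of genes were higher and 2.37% lower). Both comparisons with the non-pregnant stage share its array, so they are not independent, and each of these counts rests on 1 array against 1 array.

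In tissue labelled myometrium the stages were further apart, counted on the brightest probe set of each gene. CTH, GGT1 and GSTA1 were 2-fold or more higher in early than in non-pregnant tissue and PHGDH and GSTA4 lower, where 9.18% of 5642 measured genes were higher and 10.3% lower. In late pregnancy PHGDH, CTH and GSTA4 were lower than the non-pregnant array and 0 were higher (13.2% of genes were lower and 11.3% higher). Between late and early pregnancy PSPH, CTH and GSTA1 were lower and PHGDH higher (5.56% of genes were lower and 5.72% higher). The third GSTA1 probe set, not counted here, was at least 21.3-fold higher in late than in non-pregnant tissue. It was also 4.17-fold higher in late than in early pregnancy. Centring the arrays on their medians moved the median ratio of all genes by 0.11 for early and for late over non-pregnant tissue, and by 0.15 and 0.12 for late pregnant ovary over the non-pregnant and early pregnant ovary. It changed the split of all genes 2-fold higher and lower from 152 and 182 to 207 and 134 (late over non-pregnant ovary) and from 71 and 128 to 127 and 99 (late over early ovary). In tissue labelled myometrium it changed from 518 and 581 to 607 and 443 (early over non-pregnant) and from 646 and 752 to 736 and 618 (late over non-pregnant).

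**Figure D4:**
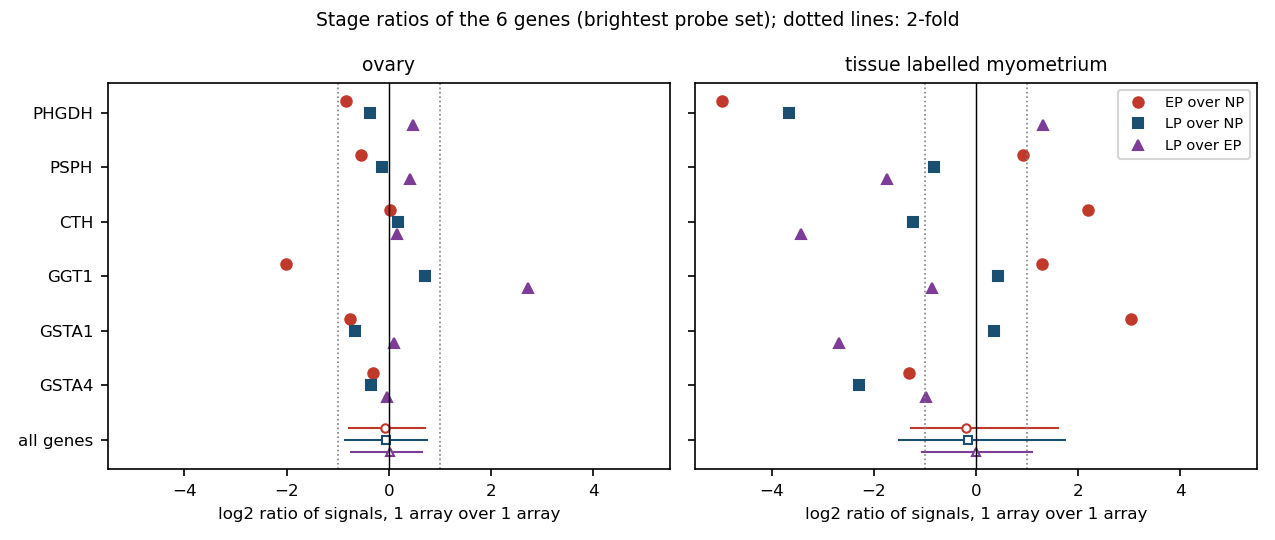
Log2 ratios between stages, 1 array over 1 array, for the brightest probe set of each gene in ovary (left) and tissue labelled myometrium (right); circles, early over non-pregnant; squares, late over non-pregnant; triangles, late over early pregnant. Dotted lines mark 2-fold, and the lowest row gives the median (open symbol) and the middle 90% (line) of all measured genes; only GGT1 passes 2-fold in ovary.

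The other genes of these pathways did not share one direction between tissues. Of 164 genes in 6 lists, 96 were matched to a probe set and 86 were above the floor on at least 2 arrays and tested by limma with tissue and stage as terms. Of these, 5 were higher in ovary, 3 were higher in tissue labelled myometrium and 78 did not pass. Over all 5673 genes tested, 2.94% passed toward ovary and 2.52% toward the other tissue. At an unadjusted p under 0.05 there were 28 of 86. The share of all genes under that p was not counted, so no excess is read from it. The median log2 difference of the 86 tested pathway genes, ovary minus myometrium, was 0.086, against 0.030 for all genes. Without the early pregnant arrays the counts were 1 and 0, without the non-pregnant arrays 10 and 8, and without the late pregnant arrays 3 and 4, from fits with fewer arrays.

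Among 13 tested serine and one-carbon genes, 0 were called toward ovary and 1 toward tissue labelled myometrium, with a median of 0.18. That gene was AMT, an enzyme of the mitochondrial glycine cleavage system. It lay under the floor on all 3 ovary arrays and read 233, 351 and 341 on the arrays labelled myometrium. That made it at least 3.71-fold higher there (log2 difference -1.89 ± 0.27, SE, limma adjusted p = 0.0219). AMT was above the floor, and so tested, only through those arrays, and every ovary value was set to the floor. The SE and p-value therefore hold no spread among ovary arrays, and the call is not read as support. A second AMT probe set had a difference of -0.84. Of 15 methionine and cysteine genes, 2 were higher in tissue labelled myometrium and 0 in ovary, with a median of -0.37. SLC3A1, a subunit of the transporter of cystine and dibasic amino acids, read 101, 79.4 and 89.3 in ovary and 659.5, 2878 and 3590 on the other arrays (-4.39 ± 0.57, SE, adjusted p = 0.0182, with 1 ovary array at the floor). Its other probe set differed by 0.36 in the opposite direction. The sulfurtransferase TST read 349, 573.5 and 459 in ovary and 2805, 2471 and 1284 on the arrays labelled myometrium (-2.20 ± 0.35, SE, adjusted p = 0.0287).

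Among 13 tested genes of glutathione synthesis and turnover, 2 were called toward ovary and 0 toward tissue labelled myometrium, with a median of 0.10. GCLC, the catalytic subunit of the enzyme that limits glutathione synthesis, read 2442, 2844 and 3386 in ovary and 663, 976 and 931 on the arrays labelled myometrium (1.76 ± 0.22, SE, adjusted p = 0.0171). Of its other probe sets, 3 differed by 1.09 to 2.09 toward ovary and 1 lay under the floor throughout. HAGH, a glyoxalase that frees glutathione from its lactate conjugate, differed by 2.48 ± 0.21 (SE, adjusted p = 0.00760), and its second probe set by 2.67. GCLM, the regulatory partner of GCLC, did not pass (1.01, adjusted p = 0.202), nor did GSS (0.16, adjusted p = 0.824) or the reductase GSR (-0.027, adjusted p = 0.974).

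Of 9 other genes in the transferase list, limma called 0 in either direction (median 0.22), with 4 at an unadjusted p under 0.05. The share of all genes under that p was not counted. The list includes CLIC1 and EEF1G, which are not classed as glutathione transferases. The lowest adjusted p values belonged to CLIC1, with a difference of -0.92 (adjusted p = 0.0621), and GSTO1, with 1.17 toward ovary (adjusted p = 0.0858). Among 26 peroxide and thiol defence genes, 2 were called toward ovary and 0 toward tissue labelled myometrium (median 0.16). GPX3, a secreted glutathione peroxidase, read 9682, 16204 and 19899 in ovary and 36.6, 882 and 139 on the arrays labelled myometrium (6.08 ± 0.59, SE, adjusted p = 0.0115, with the non-pregnant uterine array set to the floor). PRDX2, a cytosolic peroxiredoxin, differed by 0.91 ± 0.17 (SE, adjusted p = 0.0428). Of 10 stress regulators and their targets, 1 was higher in ovary, the quinone reductase NQO1, with 1620, 4210 and 3410.0 in ovary and 506, 1769 and 536 on the other arrays (1.87 ± 0.32, SE, adjusted p = 0.0362), and the list's median was 0.38. Luteal and epithelial marker sums also separate the tissues, as given above, and their part in these differences was not tested.

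**Figure D5:**
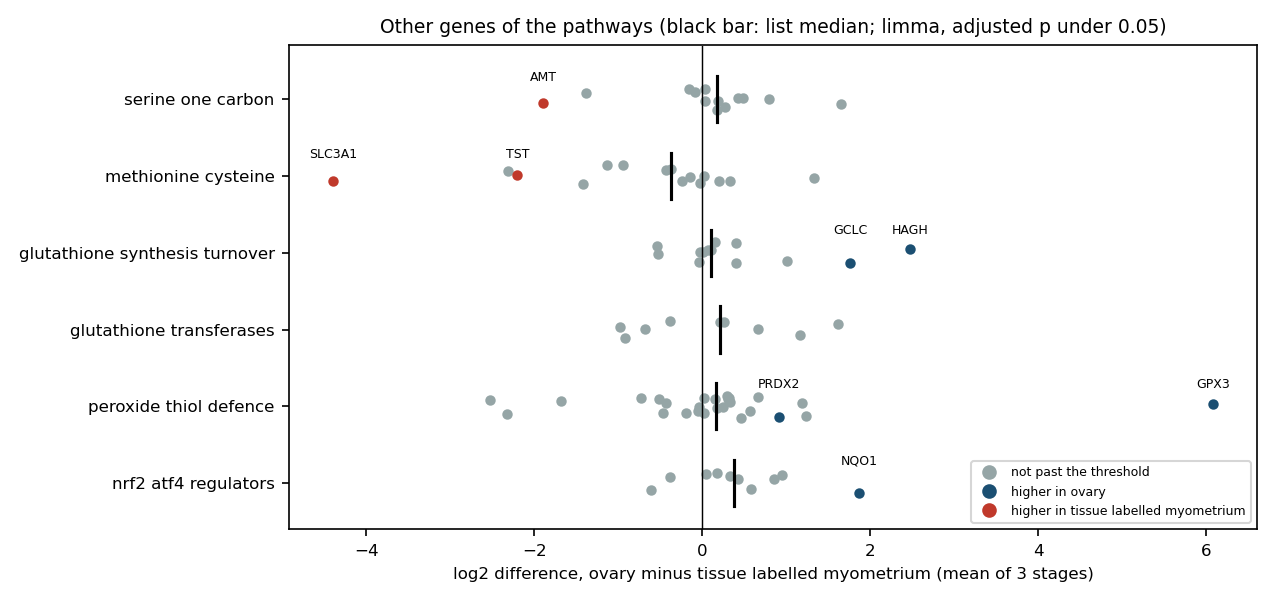
Log2 difference between ovary and tissue labelled myometrium (mean of 3 stages, positive toward ovary) for each tested gene of the 6 pathway lists, 1 point per gene; blue and red points passed limma's adjusted p of 0.05, grey points did not, and black bars are list medians. The 5 genes higher in ovary and 3 higher in tissue labelled myometrium are named.

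Between stages of the ovary, 1 of 79 measured pathway genes was 2-fold or more higher and 2 were lower in early than in non-pregnant tissue, beside 2.01% and 2.47% of all measured genes. In late over non-pregnant ovary 3 of 80 were higher and 2 lower, beside 2.80% and 3.35%. Both pairs of counts lie near the share over all genes. SHMT1, which passes a one-carbon unit from serine to folate in the cytosol, read 719, 292 and 200.5 by stage, 3.59-fold lower in late pregnancy. SFXN1, a mitochondrial serine transporter, read 217, 427 and 536, 2.47-fold higher. The glutaredoxin GLRX was 2.64-fold lower in early pregnancy, GPX3 was 2.06-fold higher in late pregnancy, and NQO1 was 2.60-fold higher in early pregnancy.

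In tissue labelled myometrium, 15 of 86 measured pathway genes were 2-fold or more higher and 7 lower in early than in non-pregnant tissue, with a median log2 ratio of 0.089 against -0.19 for all genes, of which 9.18% were higher and 10.3% lower. In late pregnancy 12 of 85 were higher and 12 lower (median -0.077, and -0.16 for all genes, of which 11.3% were higher and 13.2% lower). These ratios have no replicate check.

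Beside PSAT1, serine and one-carbon genes included MTHFD2 of the mitochondrial folate pathway, 2.71-fold higher, and MTHFD1L, 2.58-fold lower, in early pregnancy. The amino acid carrier SLC1A5 read 605, 811.5 and 2953 by stage, 4.88-fold higher in late pregnancy. Among methionine and cysteine genes, SLC1A1, which takes up glutamate and cysteine, was at least 19.1-fold higher in early pregnancy, from 79.5 to 1563. Its next brightest probe set rose less, at 121, 331 and 224 by stage, and the rest lay near or under the floor. GNMT, which consumes methyl groups of S-adenosylmethionine, was at least 10.3-fold lower in late pregnancy, from 839 to 34.2. The aminotransferase GOT1 read 1023, 1013 and 8203 by stage, and the brightest SLC3A1 probe set was 5.44-fold higher in late pregnancy. The other SLC3A1 probe set went the opposite way, at 1102.5, 554 and 468 by stage.

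For glutathione itself, GCLM read 95.8, 412 and 191 by stage, 4.30-fold higher in early pregnancy. The peptidase ANPEP, which acts on the product of GGT1, was 2.65-fold higher in late pregnancy and the exporter ABCC2 at least 2.11-fold higher. Of the transferases, GSTM3 read 3946.5, 1783 and 448, 8.81-fold lower in late pregnancy, MGST1 was 3.10-fold and GSTO1 2.15-fold lower, and the prostaglandin E synthase PTGES was 5.08-fold higher. The extracellular superoxide dismutase SOD3 read 6.5, 640.2 and 1307.5 by stage, and the epithelial peroxidase GPX2 was 12.0-fold higher in late pregnancy. In early pregnancy GPX3 was at least 10.8-fold, the glutaredoxin GLRX5 4.62-fold, haem oxygenase HMOX1 4.88-fold and NQO1 3.50-fold higher. HMOX1 and NQO1 read 487 and 536 on the late pregnant array, near their non-pregnant signals of 592 and 506. PCK2 was at least 2.35-fold higher in late pregnancy. Trophoblast and epithelial marker sums were higher on both pregnant arrays, the epithelial one mostly through ACP5, SPP1 and SLPI. The keratins KRT8, KRT18 and KRT19 were lower on both. The part of cell composition in these ratios was not tested.

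The genes whose pattern over the 6 arrays lay nearest to each member were found by the root mean square distance between centred log2 profiles, among 5667 genes. Nearest to PHGDH were ATP6V0D2, a proton pump subunit (distance 0.61), MAL (0.75) and the uroplakin UPK3A (0.77), against a median distance of 2.10 for all genes. MAL read 3432 on the non-pregnant array labelled myometrium and 458.5 and 710 on the pregnant ones. For PSPH they were PLLP (0.27), the endocytic receptor LRP2 (0.49) and C7H6orf52 (0.51), with a median of 1.98. For CTH they were the transporter ABCG2 (0.38), POPDC3 (0.45) and TMEM254 (0.49), with a median of 1.10. ABCG2 read 1677, 2305 and 1594 in ovary and 1182, 5358 and 904 on the arrays labelled myometrium.

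Nearest to GGT1 were SFTPC (0.56), the lipoprotein receptor LRP8 (0.76) and the high-density lipoprotein receptor SCARB1 (0.85), with a median of 1.86. Nearest to GSTA1 were STC1, a secreted glycoprotein hormone (0.44), and again LRP8 (0.67) and SCARB1 (0.87), with a median of 2.08. STC1 read 2183, 1599 and 1339 in ovary and 109.5, 749 and 170.3 on the arrays labelled myometrium, the same rank order of stages as the brightest GSTA1 probe set in uterine tissue. For GSTA4 they were the purine synthesis enzyme PAICS (0.34), AKAP7 (0.34) and MCRIP2 (0.41), with a median of 1.82. These rest on 6 arrays, and the neighbours are a description only.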

How the data were processed

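The authors deposited 1 table of MAS5 signal intensity values on a linear scale, from the MAS5 algorithm, as the submitters' processing notes name it without version or settings. The mean after trimming 2% of probe sets at each end was 500.1 on every array. Such scaling hides changes in total RNA. After leaving out 124 control probe sets, signals under the 40th percentile (81.7) were raised to it and log2 was taken. Gene names came from the platform annotation; all 6 genes matched a RefSeq record by gene identifier. Each gene was represented by its brightest probe set.

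Tissues were compared with limma 3.58.1 (R 4.3.3), fitting tissue and stage to 6 arrays with an intensity trend and 2 residual degrees of freedom, for probe sets that exceeded the floor on 2 or more arrays, with Benjamini-Hochberg adjustment over all of them and a threshold of 0.05. The fit code was run on simulated data with known tissue changes. Those data had no stage effects and no signals raised to the floor, so the run does not vouch for the calls made here. Arrays of a tissue are different stages, not replicates, so p-values measure agreement across arrays and not animals, and their number limits precision. Stage ratios, 1 array each, were described without a test.

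The members and gene lists were chosen with earlier results of these data known. All member probe sets are described. From each list up to 6 genes per direction past the threshold were named, and up to 4 per tissue with the largest 2-fold or greater ratio to the non-pregnant stage, plus the 3 nearest genes of each member; GCLM, GSS and GSR were added as partners of GCLC in the same pathway. Alternatives were other floors, a pseudocount of 16, other scalings, averaged probe sets, no filter, no trend, no stage block and leaving out a stage.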

Additional observations from a re-analysis of the deposited data

Results flagged for a closer look

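GGT1 went opposite ways in the tissues between the non-pregnant and early pregnant stages. Its log2 ratio of early over non-pregnant signal was -2.02 in ovary and 1.30 in tissue labelled myometrium. The second GGT1 probe set gave -1.32 in ovary and at least 1.30 in tissue labelled myometrium, where its non-pregnant array lay under the floor. The uterine ratio came to 0.15 with the floor at the 60th percentile, above the non-pregnant signal, and to 0.65 with averaged probe sets, where the ovary ratio was -1.23. With 1 array on each side, the difference between tissues was not tested.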

How the results depend on the processing

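Of 54 recomputed tissue differences of the 6 genes, 53 moved by less than their SD over stages. Leaving out a stage could not move a mean of 3 stages by that much, and averaging could not move genes with 1 probe set. CTH went from -0.26 to 0.70 without the early pregnant arrays and PHGDH from -2.92 to -1.68 without the non-pregnant arrays. With averaged probe sets GGT1 went from 3.21 to 1.56. That of GSTA4 came to 1.70 with averaged probe sets, of which 1 lay under the floor on all arrays. Of 216 stage ratios 20 moved by more than the usual gap between probe sets of a gene, and no ratio past 2-fold changed sign. That count understates the dependence on the probe set. The lower floor could not move any of these ratios, nor averaging those of genes with 1 probe set. Most of the moves came with averaged probe sets, which took GSTA1, late over early in tissue labelled myometrium, from -2.69 to -0.99. With averaged probe sets, 3 members in place of 5 were 2-fold apart between early and non-pregnant tissue labelled myometrium. Between late and non-pregnant it was 4 in place of 3, as the GSTA1 ratio came to 1.58 from 0.35. Between late and early it was 3 in place of 4. Centring on the median gave 6 between early and non-pregnant tissue, and the floor at the 60th percentile gave 4. The count of pathway genes higher in ovary was 3 with averaged probe sets, and ranged from 1 to 10 when a stage was left out. The count higher in tissue labelled myometrium ranged from 0 to 8. Without the early pregnant arrays, 20 of 80 tested genes had an unadjusted limma p under 0.05. Without the filter on low signals, limma called 0 in either direction (20 of 96 at an unadjusted p under 0.05). For neither fit was the share of all genes under that p counted. The cause of these changes was not tested. Each of the 8 pathway calls ended without that filter, and all but that of GPX3 without the early pregnant arrays. PRDX2 also lost its call under quantile normalization, with averaged probe sets, without the trend and without the late pregnant arrays, and NQO1 without the stage block and without the late pregnant arrays. AMT lost it at the higher floor and, like GCLC, with averaged probe sets. The tissue fit already compares tissues within stages; without that stage block, 6 pathway genes were called toward ovary and 4 toward the other tissue. Signals near the floor of 81.7 limit what can be said of the third GGT1 probe set.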
